A study of Gallus gallus with 10 samples.

Results

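The genes described here encode the machinery that copies DNA and repairs it: origin licensing factors, the replicative helicase, DNA polymerases, the sliding clamp and its loader, fork and checkpoint proteins, repair proteins, and a pair of regulators of entry into S phase. They were given as 45 gene symbols, chosen with earlier results of these data known. The symbols were looked up by exact name in an expression table of the chick choroid. The choroid is a tissue rich in vessels and pigment cells that lies behind the retina. Of the 45 symbols, 42 named 1 row each of the 24355 genes in the table, and POLA2, PRIM1 and POLD1 were not analysed here. RNA was sequenced from 5 choroids with PAPA-NONOate, a nitric oxide donor, at 1.5 mM, and from 5 control choroids without it. All 10 came from normal chick eyes at day 15 after hatching, of the strain labelled Domesticus, as whole tissue homogenate. The labels give the same text, an incubation of 24 hours with the donor, for both groups, while titles and source names call the controls minus PAPA-NONOate. Treated samples carry the letter R and controls the letter L, so whatever these letters mark cannot be told apart from the treatment. The replicate numbers 2, 3, 4, 5 and 8 occur in both groups. Whether replicates are separate birds is not stated, and the p-values given below therefore describe only how these libraries scatter, which may be technical.

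Before a cell divides, the origin recognition complex, CDC6 and CDT1 load the ring of MCM proteins onto DNA, and CDC45 and the GINS complex then turn that ring into a moving helicase. Polymerase alpha with primase starts each strand, polymerases epsilon and delta extend it, and PCNA, loaded by the RFC complex, holds polymerases and other enzymes on the template. Many of the genes are transcribed mainly around the start of S phase under E2F factors, and cells that have left the cell cycle hold little of their RNA. These roles are background, known mainly from yeast and mammals.

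With PAPA-NONOate most of these genes were lower than in control choroids, and none was called higher. Expression is given as FPKM, fragments counted per transcript length and per mapped fragment in the library. Of the 42 genes 36 reached 1 FPKM in at least 5 of the 10 libraries and were tested with all other such genes, 11357 in all, by limma on log2(FPKM + 0.5) with Benjamini-Hochberg adjustment and a threshold of 0.05. Among the 36 tested, 23 fell, 0 rose and 13 did not pass. Over all genes tested 7.41% were called lower and 1.93% higher. At an unadjusted p under 0.05 by limma, 33 of the 36 were lower and 0 higher. The share of all genes at that mark was not counted, so these 2 counts have no background. Of the 11357 genes tested 8413 had a negative log2 fold change, beside 35 of the 36. The median log2 fold change of the 36 was -0.74, beside -0.18 for all genes tested, so that the libraries differed in the median gene as well. After median-ratio scaling, which removes that shift, 22 of the 36 were called lower and 0 higher, where 6.60% of all genes were called lower and 6.96% higher. By at least 1 on the log2 scale, 14 of the 36 fell, beside 2.99% of all genes. Every library with PAPA-NONOate lay below every control in 21 of the 36, beside 7.48% of all genes. ORC1, CDC45, BRCA1 and CCNE2 passed the filter through control libraries alone, so their entry into the test already required a difference, and the counts over tested genes lean on this. Without a filter all 42 were tested, and 21 were called lower and 0 higher, beside 2.98% and 1.06% of 19269 genes, and the groups did not overlap in 24 of the 42, beside 5.29%. With a filter on the mean over all libraries, of 1 FPKM, 23 of 36 were called lower, beside 7.34%, and 0 higher, beside 1.90%. The number called lower moved from 23 to 16 without control replicate 2 and to 30 without control replicate 5. Of all 11357 genes 429 and 748 were called lower in these 2 cases.

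**Figure D1:**
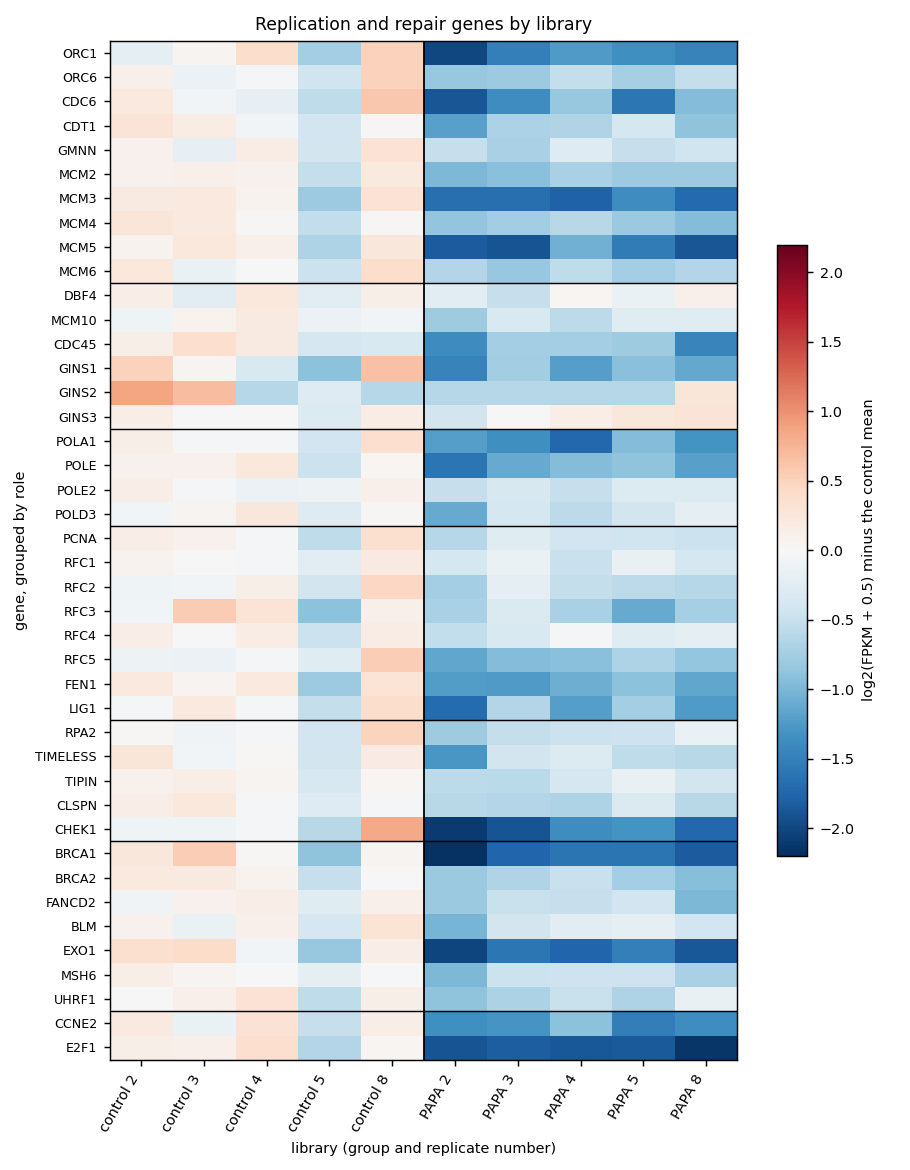
Heat map of log2(FPKM + 0.5) minus the mean of the 5 controls, for the 42 genes in rows grouped by role and the 10 libraries in columns; blue is below the control mean. The PAPA-NONOate columns are blue for most genes, GINS3 and DBF4 stay pale, and control 5 is the bluest of the control columns, lowest of them in 39 of 42 genes.

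Markers of other cell types differed between the groups as well. FPKM carry no depth, and steps between the lowest values did not give it either, since only 11.7% to 17.7% of low genes lay at a ratio common to 2 libraries. The depth of each library is therefore unknown. In tissue RNA, fewer cells of a type and less RNA per cell cannot be told apart. The choroid was recognizable by its endothelial markers, with a summed FPKM of 417 to 541 in controls and 349.9 to 542 with PAPA-NONOate, and by smooth muscle and pericyte markers, at 167 to 256 in controls and 92.0 to 229 with PAPA-NONOate. Melanocyte markers were present and varied widely, at 19.1 to 459 in controls and 10.7 to 185 with PAPA-NONOate. Retinal markers were near absent, with all 4 of those in the table under a mean of 1 FPKM and 1 of them listed at 0 throughout. The 10 macrophage markers summed to 526 to 898 in controls and 189 to 507 with PAPA-NONOate, without overlap. For the 9 T and B lymphocyte markers in the table the sums were 9.77 to 20.2 in controls and 2.64 to 7.62 with PAPA-NONOate, with 7 of the 9 under a mean of 1 FPKM, and for the 6 markers of retinal pigment epithelium 5.28 to 5.9 in controls and 3.74 to 4.51 with PAPA-NONOate, with 4 of the 6 under 1. The sums of these 3 lists were lower with PAPA-NONOate (adjusted p = 0.0265 over 10 marker lists, exact two-sided permutation test, n = 5 per group). The 8 fibroblast markers, at 978 to 1939 in controls and 294 to 1071 with PAPA-NONOate, overlapped (adjusted p = 0.0595, same test). Erythroid and thrombocyte markers summed to 475 to 2733 FPKM in controls and 1123 to 2112 with PAPA-NONOate (adjusted p = 0.526, same test). Scleral cartilage markers summed to 6.89 to 10.2 FPKM in controls and 7.25 to 29.6 with PAPA-NONOate (adjusted p = 0.238, same test). Both lists had a higher mean sum with PAPA-NONOate and did not pass. Without PAPA-NONOate replicate 5 the fibroblast sum differed by -821 and the smooth muscle and pericyte sum by -71.8 FPKM, and both passed (adjusted p = 0.0317, same test). All 8 fibroblast markers had negative log2 fold changes, with a median of -1.18. By limma 3 of the 8 were called lower and 0 higher, beside 7.41% and 1.93% of all genes. The 8 smooth muscle and pericyte markers did not move alike. By limma 1 was called lower and 1 higher, and 4 of the 8 had a negative log2 fold change. RGS5 had a mean of 104 FPKM in controls and 40.4 with PAPA-NONOate, and CNN1 of 0.646 and 2.91. The macrophage, lymphocyte and pigment epithelium calls were lost after median-ratio scaling (adjusted p = 0.0529, 0.0529 and 0.0794). With 1 library left out the smallest possible p is 0.0159, and 3 lists at that value among 10 cannot pass after adjustment. The differences then ran from -316 to -212 FPKM for macrophages, from -10.6 to -7.99 for lymphocytes and from -1.53 to -1.33 for pigment epithelium, beside -279, -9.47 and -1.43 with all libraries. RPE65, a defining marker of pigment epithelium, reached at most 0.22 FPKM in any library. The lower sum of the pigment epithelium list lay mainly in 1 gene, LRAT, with a mean of 1.98 FPKM in controls and 0.76 with PAPA-NONOate. RDH5, the most abundant marker of that list, did not fall, with means of 2.83 and 2.93 FPKM. The part of these cell types in the changes of the replication genes was not tested.

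Of the 10 given genes of origin licensing 9 fell, beside 7.41% of all genes, and 7 of 10 without the filter, beside 2.98%. Of 8 other licensing genes, described further below, 1 was called lower. The values of each library are given below in the order of replicates 2, 3, 4, 5 and 8. MCM3 (ENSGALG00000016676), a subunit of the MCM2-7 helicase ring, was at 7.21, 7.28, 6.63, 3.38 and 7.91 FPKM in controls and 1.62, 1.64, 1.47, 2.11 and 1.56 with PAPA-NONOate. MCM5 (ENSGALG00000012546), of the same ring, was at 28.3, 31.7, 29.2, 16.5 and 32.2 FPKM in controls and 7.18, 6.81, 12.6, 8.89 and 6.88 with PAPA-NONOate. Both were lower in every treated library than in the lowest control, replicate 5, and MCM5 with PAPA-NONOate was highest in replicate 4. The changes passed for MCM3 (log2 fold change -1.64, SE 0.21, adjusted p = 0.000764) and for MCM5 (log2 fold change -1.65, SE 0.21, adjusted p = 0.000764), and 25.9% and 30.7% of the mean control FPKM remained. The other 3 ring subunits in the table fell by less. MCM2 was at 24.2, 24.4, 24.1, 15.4 and 26.3 FPKM in controls and 11.1, 11.7, 13.6, 12.7 and 12.7 with PAPA-NONOate (log2 fold change -0.84, SE 0.15, adjusted p = 0.00424). For MCM4 and MCM6 the log2 fold changes were -0.80 at an adjusted p of 0.00875 and -0.68 at an adjusted p of 0.0175, and 53.8% and 60.4% of the control level remained. MCM6 lost its call without control replicate 2 (adjusted p = 0.0501).

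The loading factors showed the same range. Where means are given, the error is the SD over n = 5 libraries. ORC1 (ENSGALG00000010623), the largest subunit of the origin recognition complex, was at 2.42, 2.96, 3.84, 1.48 and 4.22 FPKM in controls and 0.33, 0.68, 0.902, 0.803 and 0.698 with PAPA-NONOate (log2 fold change -1.52, SE 0.25, adjusted p = 0.00352). CDC6 (ENSGALG00000051645), an ATPase that joins this complex to recruit the helicase, was at 2.85, 2.26, 2.05, 1.47 and 3.83 FPKM in controls and 0.28, 0.616, 1.13, 0.461 and 0.993 with PAPA-NONOate (log2 fold change -1.33, SE 0.27, adjusted p = 0.00922). In both genes all treated libraries lay under all controls, and the level in treated libraries was near or under 1 FPKM. ORC6, the smallest subunit of the complex, was at 5.68 ± 0.646 FPKM with PAPA-NONOate and 9.6 ± 2.49 FPKM in controls (log2 fold change -0.68, SE 0.17, adjusted p = 0.0241). CDT1, which brings the MCM ring to origins, was at 3.11 ± 0.736 FPKM with PAPA-NONOate and 5.61 ± 1.09 FPKM in controls (log2 fold change -0.76, SE 0.18, adjusted p = 0.0219). GMNN, which encodes geminin, the inhibitor of CDT1, was at 3.21 ± 0.398 FPKM with PAPA-NONOate and 4.77 ± 1.01 FPKM in controls and did not pass (log2 fold change -0.49, SE 0.16, adjusted p = 0.0757). Groups overlapped in CDT1 and GMNN, in both through control replicate 5. ORC6 lost its call without the filter, after quantile normalization, and without control replicate 2 or PAPA-NONOate replicate 3. CDT1 lost its call in 5 of 24 alternatives, among them those without the filter and without control replicate 2 or 3 or PAPA-NONOate replicate 8 (adjusted p up to 0.0599 for CDT1 and 0.0685 for ORC6). GMNN passed without control replicate 5 or with library weights, and without both libraries numbered 5, with an adjusted p from 0.0357 to 0.336 over its alternatives.

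**Figure D2:**
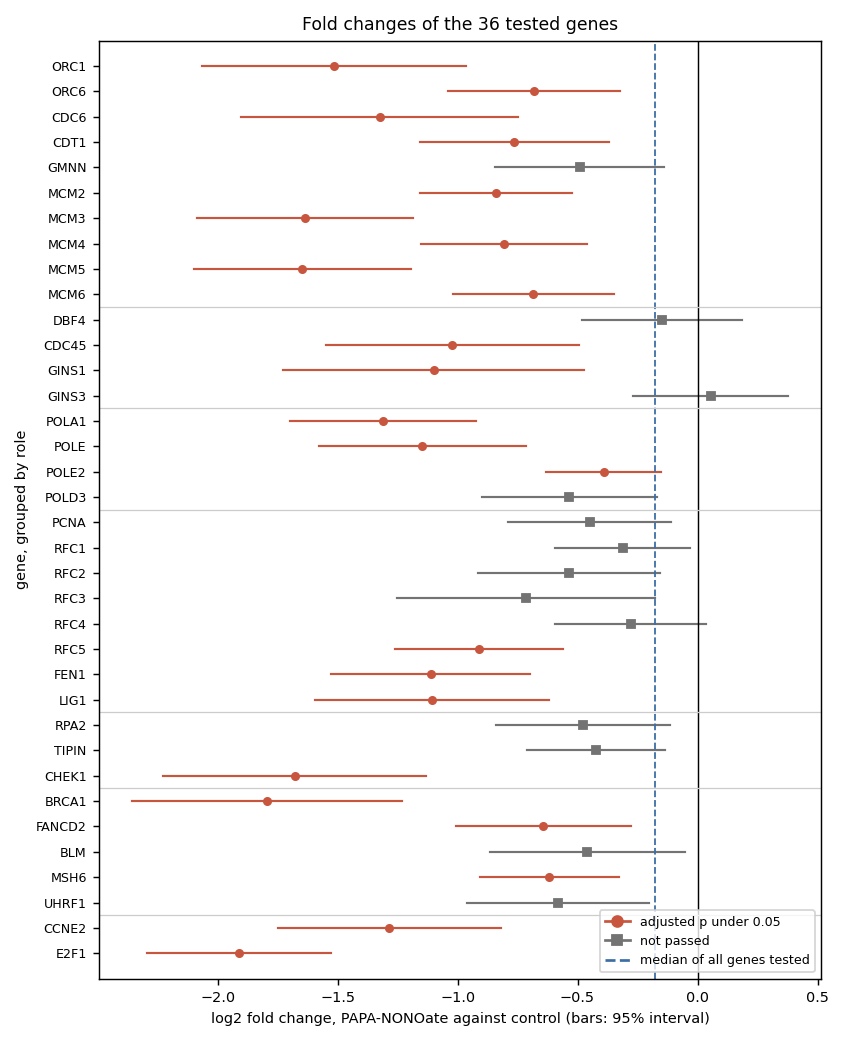
Log2 fold changes with PAPA-NONOate (points) and their 95% intervals (bars) from limma for the 36 tested genes, grouped by role; red circles passed an adjusted p of 0.05, grey squares did not, and the dashed line is the median of all genes tested, -0.18. E2F1, at -1.91, and BRCA1, at -1.79, lie farthest to the left, and GINS3, at 0.05, is the only estimate above 0.

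Genes that turn the loaded ring into a working helicase did not move alike. GINS3 (ENSGALG00000031209), a subunit of the GINS complex, was at 33.9, 31.0, 30.5, 24.7 and 34.5 FPKM in controls and 23.0, 30.9, 33.9, 36.6 and 37.5 with PAPA-NONOate. It was the only 1 of the 42 genes with a higher mean with PAPA-NONOate than in controls, at 105%, and the groups overlapped. Its log2 fold change was 0.05 with a 95% interval of -0.27 to 0.38 (adjusted p = 0.842), and it was -0.02 without control replicate 5 and 0.24 after median-ratio scaling (adjusted p = 0.0737). GINS1 (ENSGALG00000008538), another subunit of the same complex, was at 3.31, 2.29, 1.62, 0.926 and 3.69 FPKM in controls and 0.458, 1.07, 0.654, 0.909 and 0.718 with PAPA-NONOate. It fell (log2 fold change -1.10, SE 0.29, adjusted p = 0.0332), although control replicate 5 reached into the treated range, and the call was lost in 10 of 24 alternatives, among them those without control replicate 2, 3 or 8 or PAPA-NONOate replicate 2, 4 or 8 (adjusted p up to 0.0908). CDC45, which joins the MCM ring and GINS in the active helicase, was at 1.75, 2.17, 1.88, 1.1 and 1.14 FPKM in controls and 0.294, 0.729, 0.73, 0.706 and 0.252 with PAPA-NONOate. All treated values were under the lowest control (log2 fold change -1.02, SE 0.24, adjusted p = 0.0219), and the call was lost without control replicate 2, 3 or 4 or PAPA-NONOate replicate 8 (adjusted p up to 0.06). DBF4, the activating subunit of the kinase CDC7, was at 8.31 ± 1.43 FPKM with PAPA-NONOate and 9.25 ± 1.51 FPKM in controls and did not pass. Its log2 fold change was -0.15 with an interval of -0.48 to 0.19 (adjusted p = 0.555), and 0.03 after median-ratio scaling. MCM10, which acts in helicase activation, and GINS2 were under 1 FPKM in every library and were not tested with the filter. MCM10 lay between 0.0347 and 0.273 FPKM with PAPA-NONOate and between 0.348 and 0.565 in controls. GINS2 was listed at 0 in 4 treated and 2 control libraries and reached 0.905 FPKM in control replicate 2.

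Of the polymerase genes in the table, 3 of 4 fell, beside 7.41% of all genes. POLA1 (ENSGALG00000016312), the catalytic subunit of polymerase alpha, was at 8.67, 7.7, 7.68, 5.79 and 10.3 FPKM in controls and 3.12, 2.78, 2.03, 3.86 and 2.9 with PAPA-NONOate. The lowest control was above the highest treated library, and 36.6% of the mean control FPKM remained (log2 fold change -1.31, SE 0.18, adjusted p = 0.00112). POLE (ENSGALG00000007665), the catalytic subunit of the leading-strand polymerase epsilon, was at 3.03, 3.04, 3.4, 1.9 and 2.94 FPKM in controls and 0.594, 1.04, 1.21, 1.3 and 0.957 with PAPA-NONOate (log2 fold change -1.15, SE 0.20, adjusted p = 0.00424). POLE2, a non-catalytic subunit of the same enzyme, was at 17.9, 15.7, 14.7, 14.8 and 17.4 FPKM in controls and 11.1, 12.5, 11.2, 13.0 and 13.0 with PAPA-NONOate. Its groups did not overlap either, yet the fall was small (log2 fold change -0.39, SE 0.11, adjusted p = 0.0441). POLE2 lost its call in 14 of 25 alternatives, among them median-ratio scaling (adjusted p = 0.126) and those without any 1 library other than control replicate 5 or PAPA-NONOate replicate 5 (adjusted p up to 0.143). POLD3, an accessory subunit of polymerase delta, was at 13.0 ± 2.89 FPKM with PAPA-NONOate and 18.7 ± 2.6 FPKM in controls and did not pass (log2 fold change -0.53, SE 0.17, adjusted p = 0.0644), except with library weights or without both libraries numbered 5.

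The sliding clamp and most of its loader did not pass, and the enzymes that finish the lagging strand fell. All 8 of these genes had negative log2 fold changes, and the difference of the enzymes from the clamp and loader was not tested. PCNA (ENSGALG00000029292), the clamp, was the most abundant of the 42 transcripts per length, at 82.5, 80.0, 72.4, 50.5 and 95.1 FPKM in controls and 47.8, 61.5, 55.7, 54.7 and 53.2 with PAPA-NONOate. Control replicate 5 lay within the treated range, and PCNA did not pass (log2 fold change -0.45, SE 0.16, adjusted p = 0.0903), except without control replicate 5 (adjusted p = 0.0143) or without both libraries numbered 5. The clamp loader is made of RFC1 to RFC5, and of these RFC5 fell. RFC5 was at 8.48, 8.35, 9.0, 7.49 and 13.5 FPKM in controls and 3.87, 4.47, 4.62, 5.51 and 4.89 with PAPA-NONOate, highest in control replicate 8 (log2 fold change -0.91, SE 0.16, adjusted p = 0.00486). RFC1, RFC2, RFC3 and RFC4 had log2 fold changes of -0.31 at an adjusted p of 0.14, -0.54 at an adjusted p of 0.0733, -0.71 at an adjusted p of 0.0879 and -0.28 at an adjusted p of 0.231. RFC2 passed in 2 of 24 alternatives and RFC3 in 5 of 24, both among them without control replicate 5. FEN1 (ENSGALG00000033781), the nuclease that trims Okazaki fragments, was at 41.9, 37.4, 41.8, 20.5 and 44.7 FPKM in controls and 15.1, 14.9, 16.9, 19.1 and 16.1 with PAPA-NONOate. LIG1 (ENSGALG00000043938), the ligase that joins them, was at 5.34, 6.5, 5.31, 3.68 and 7.36 FPKM in controls and 1.35, 3.35, 2.11, 3.07 and 2.04 with PAPA-NONOate. In both the groups were separate, with FEN1 at 44.1% and LIG1 at 42.3% of control. The changes passed for FEN1 (log2 fold change -1.11, SE 0.19, adjusted p = 0.00407) and for LIG1 (log2 fold change -1.11, SE 0.23, adjusted p = 0.00986).

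Among the given fork and checkpoint genes CHEK1 fell. CHEK1 (ENSGALG00000042418), the kinase that signals stalled forks, was at 5.1, 5.12, 5.32, 3.42 and 10.2 FPKM in controls and 0.883, 1.11, 1.83, 1.92 and 1.32 with PAPA-NONOate. The highest control, replicate 8, stood well above the others, and every treated library was below every control (log2 fold change -1.68, SE 0.25, adjusted p = 0.00204). CHEK1 kept its call without control replicate 8 (adjusted p = 0.00339). RPA2, a subunit of the single-strand binding protein, was at 24.1 ± 3.95 FPKM with PAPA-NONOate and 34.1 ± 8.02 FPKM in controls, and TIPIN, a fork protection factor, at 14.2 ± 1.82 FPKM with PAPA-NONOate and 19.2 ± 2.55 FPKM in controls. Neither passed, with log2 fold changes of -0.48 at an adjusted p of 0.0906 and -0.42 at an adjusted p of 0.0637. Each passed in 4 of 25 alternatives, TIPIN among them without PAPA-NONOate replicate 5 and both without control replicate 5 (adjusted p = 0.046 and 0.0266 in the last case). TIMELESS, the partner of TIPIN, and CLSPN, the adaptor that lets CHEK1 be activated, were too low to enter the test with the filter. TIMELESS was at 0.42 ± 0.214 FPKM with PAPA-NONOate and 0.907 ± 0.243 FPKM in controls and CLSPN at 0.592 ± 0.116 FPKM with PAPA-NONOate and 1.13 ± 0.221 FPKM in controls, and without the filter neither passed (adjusted p = 0.113 and 0.0512).

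Of the 5 given genes of repair and maintenance methylation that were tested, 3 were called lower, beside 7.41% of all genes. Without the filter it was 4 of 7, beside 2.98%. All 5 had negative log2 fold changes, and the difference of those called from the others was not tested. BRCA1 (ENSGALG00000002781), of homologous recombination, was at 3.37, 4.24, 2.78, 1.26 and 2.89 FPKM in controls and 0.22, 0.464, 0.558, 0.568 and 0.414 with PAPA-NONOate. Its mean with PAPA-NONOate was 15.3% of control, the lowest share among genes with a mean of at least 1 FPKM (log2 fold change -1.79, SE 0.26, adjusted p = 0.00167). EXO1, an exonuclease of mismatch repair and end resection, was at 2.22, 2.34, 1.56, 0.696 and 1.86 FPKM in controls and 0.0303, 0.208, 0.142, 0.256 and 0.0879 with PAPA-NONOate. The highest treated library was below the lowest control, and EXO1 missed the filter because only 4 libraries, all controls, reached 1 FPKM. Without the filter EXO1 was called lower (log2 fold change -1.74, adjusted p = 0.00457), and so was BRCA2, a recombination mediator, at 0.328 ± 0.0987 FPKM with PAPA-NONOate and 0.886 ± 0.252 FPKM in controls (adjusted p = 0.0317). MSH6, which recognizes mismatches in copied DNA, was at 10.1 ± 1.59 FPKM with PAPA-NONOate and 15.7 ± 1.42 FPKM in controls and fell (log2 fold change -0.62, SE 0.13, adjusted p = 0.0133). FANCD2, of the Fanconi anaemia pathway of crosslink repair, was at 1.82 ± 0.375 FPKM with PAPA-NONOate and 3.11 ± 0.407 FPKM in controls (log2 fold change -0.64, SE 0.17, adjusted p = 0.0318). The call of FANCD2 was lost in 12 of 24 alternatives, among them those without control replicate 2, 3, 4 or 8 or PAPA-NONOate replicate 2, 3 or 8 (adjusted p up to 0.122). BLM, a helicase of recombination, was at 3.04 ± 0.714 FPKM with PAPA-NONOate and 4.33 ± 0.832 FPKM in controls and did not pass in any alternative (log2 fold change -0.46, SE 0.19, adjusted p = 0.135). UHRF1, which directs maintenance methylation to newly copied DNA, was at 25.2 ± 5.08 FPKM with PAPA-NONOate and 38.2 ± 7.89 FPKM in controls and did not pass either (log2 fold change -0.58, SE 0.18, adjusted p = 0.0557), though it passed in 5 of 25 alternatives, among them those with library weights and without control replicate 5 or PAPA-NONOate replicate 8 (adjusted p from 0.0155 to 0.14 over its alternatives).

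Both given regulators of entry into S phase fell, where 7.41% of all genes were called lower. Of 24 other regulators of the G1 to S transition, described further below, 5 were called lower. E2F1 (ENSGALG00000003045), a transcription factor that drives S phase genes, was at 10.9, 10.8, 13.0, 6.25 and 10.3 FPKM in controls and 2.3, 2.49, 2.39, 2.42 and 1.89 with PAPA-NONOate. The treated libraries lay close together, and the lowest control, replicate 5, was above all of them. On the log2(FPKM + 0.5) scale E2F1 had the largest fall of the 36 tested genes (log2 fold change -1.91, SE 0.18, adjusted p = 0.000142). Its adjusted p lay between 2.13e-05 and 0.0017 over 25 alternatives. By the ratio of mean FPKM, which adds no constant, BRCA1 fell further, with 15.3% of control remaining beside 22.4% for E2F1. CCNE2 (ENSGALG00000040794), which encodes cyclin E2, an activator of CDK2, was at 2.58, 1.9, 2.81, 1.38 and 2.45 FPKM in controls and 0.546, 0.589, 0.931, 0.436 and 0.535 with PAPA-NONOate (log2 fold change -1.29, SE 0.21, adjusted p = 0.0035). No treated library reached 1 FPKM of CCNE2, and every control was above that level.

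**Figure D3:**
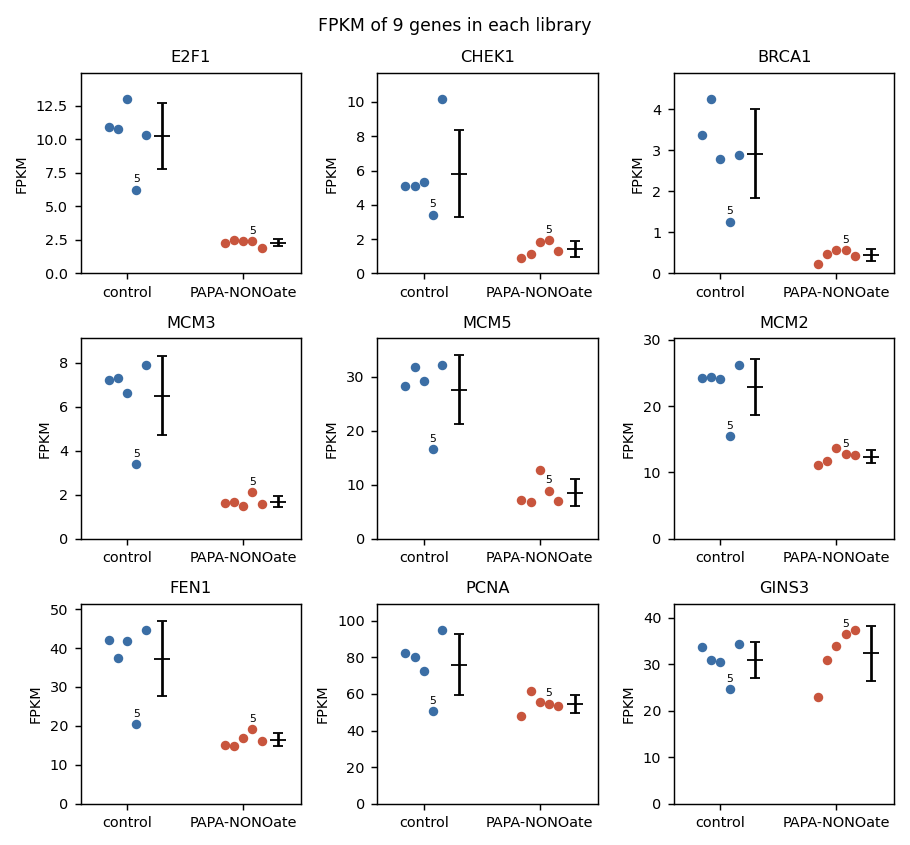
FPKM of 9 genes in each of the 5 control (blue) and 5 PAPA-NONOate (red) libraries, with the mean and SD beside the points; libraries numbered 5 are marked. In E2F1, CHEK1, BRCA1, MCM3, MCM5, MCM2 and FEN1 the groups do not overlap, in PCNA control replicate 5 falls among the treated libraries, and in GINS3 the groups share their range.

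Subunits of the same complex differed in how far they fell. For 25 pairs of genes from the same complex, or an activator and its inhibitor, the log2 ratio of their FPKM was taken in each library, which cancels any factor that scales a whole library. The pairs were set up after the values of the genes had been seen, and p-values are from exact two-sided permutation tests over samples (n = 5 per group, smallest possible p = 0.00794), adjusted over the 25 pairs. In all, 12 of 25 pairs passed, and the share among pairs of other genes was not counted. The pairs share genes and are not independent. Of the 12, 6 set MCM3 or MCM5 against MCM2, MCM4 or MCM6, and 3 set RFC5 against another loader subunit. Within the MCM ring, MCM3 to MCM2 stood at -1.86 ± 0.20 in controls and -2.89 ± 0.24 with PAPA-NONOate (SD, n = 5 per group), a difference of -1.03 (adjusted p = 0.018 by the exact test). With each library left out, or with 0.5 FPKM added to both genes, that difference ran from -1.12 to -0.795. MCM5 to MCM2 stood at 0.25 ± 0.10 in controls and -0.59 ± 0.30 with PAPA-NONOate, a difference of -0.84. MCM3 and MCM5 also lost ground against MCM4 and MCM6, by differences of -1.03, -1.20, -0.84 and -1.01, each without overlap of the groups and with the same adjusted p of 0.018 (exact). The ratios of MCM4 to MCM2, MCM6 to MCM2, MCM4 to MCM6 and MCM3 to MCM5 did not pass, with differences of -0.00282, 0.17, -0.17 and -0.19.

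In the clamp loader RFC5 fell against RFC1, with a difference of -0.64, and against RFC4, with -0.70 (adjusted p = 0.018 each, exact). The difference of RFC5 to RFC2 was -0.37 (adjusted p = 0.0331, exact), lost in 8 of 11 alternatives, among them those without control replicate 2, 3, 5 or 8 or PAPA-NONOate replicate 2, 3, 4 or 8. The other 7 pairs of the loader did not pass, although RFC3 to RFC1 passed without control replicate 5 and RFC2 to RFC4 without PAPA-NONOate replicate 3 (adjusted p = 0.0331 each, exact). GINS1 to GINS3 stood at -3.86 ± 0.63 in controls and -5.45 ± 0.37 with PAPA-NONOate, a difference of -1.58, so that in controls GINS1 had the lower level per length already. POLE to POLE2 and ORC1 to ORC6 differed by -1.11 and -1.39. These last 3 pairs did not overlap between the groups and had an adjusted p of 0.018 (exact). Over 11 alternatives the difference ran from -1.8 to -1.15 for GINS1 to GINS3 and from -1.22 to -0.756 for POLE to POLE2. For ORC1 to ORC6 it ran from -1.5 to -0.835, and all 3 pairs kept their calls. CDT1 to its inhibitor GMNN stood at 0.24 ± 0.29 in controls and -0.07 ± 0.40 with PAPA-NONOate and did not pass (adjusted p = 0.251, exact), and TIMELESS to TIPIN differed by -0.94 (adjusted p = 0.122, exact). The difference of TIMELESS to TIPIN was -0.41 without PAPA-NONOate replicate 2 and -0.21 with 0.5 FPKM added to both genes, and that of ORC1 to ORC6 was -0.83 with the same addition.

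**Figure D4:**
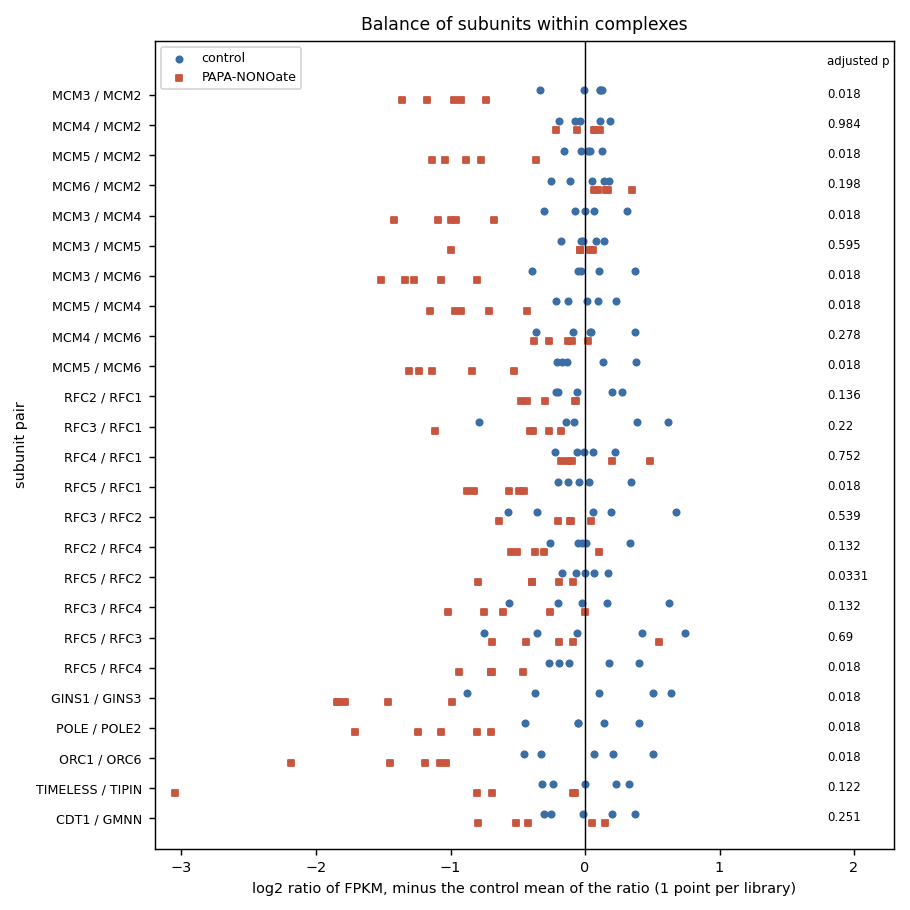
Log2 ratio of FPKM of 2 genes in each library, minus the control mean of that ratio, for 25 pairs (1 row each); blue circles are controls, red squares PAPA-NONOate, and the adjusted exact permutation p stands at the right. The ratios of MCM3 or MCM5 to MCM2, MCM4 and MCM6 lie to the left of all controls, while MCM4 to MCM2 is spread around 0 in both groups.

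The share of the control level that remained was smaller in genes of low level, as a description with no test. Sorted by control mean, the median share was 37.1% in the 7 genes under 2 FPKM, 49.9% in the 21 from 2 to 10 FPKM and 67.6% in the 14 at 10 FPKM or more. A mean over all libraries contains the treated values, so that a larger fall itself moves a gene to a lower level. On that mean, the level with PAPA-NONOate was a median of 32.2% of control in the 13 genes with a mean under 2 FPKM over all libraries, 55.0% in the 16 genes from 2 to 10 FPKM and 69.2% in the 13 genes at 10 FPKM or more. Across the 42 genes, which share their libraries and are not independent, Spearman's rho of the log2 ratio of mean FPKM was 0.56 with the log2 control mean and 0.63 with the log2 mean over all libraries. With the mean over all libraries, on the log2(FPKM + 0.5) scale, it was 0.51 over the 36 tested genes and 0.15 over all genes tested. MCM5 and FEN1 at the high end, with 30.7% and 44.1% of control, stood apart from neighbours in level such as UHRF1 (66.0%) and GINS3 (105%).

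**Figure D5:**
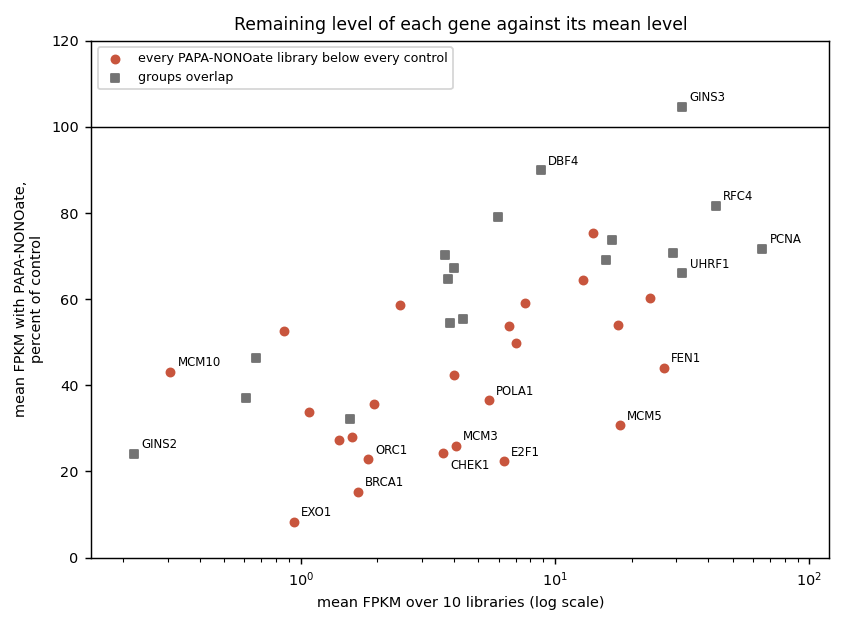
Mean FPKM with PAPA-NONOate as a percent of the control mean (vertical axis) against the mean FPKM over all 10 libraries (horizontal, log scale) for the 42 genes; red circles are genes whose groups do not overlap, grey squares overlap. EXO1, BRCA1 and ORC1 lie low at the left, and PCNA, RFC4 and GINS3 lie high at the right.

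Among the controls, replicate 5 was the lowest library in 39 of the 42 genes and the highest in 0. The same shares over all genes were not counted. The median over the 42 genes of log2(FPKM + 0.5), less the control mean of each gene, was -0.45 in control replicate 5 and 0.04 to 0.16 in the other controls, against -0.98 to -0.62 with PAPA-NONOate. The median of all genes on the same scale was -0.15 in control replicate 5, also the lowest of the controls. In that library the erythroid and thrombocyte markers summed to 2733 FPKM, the highest of the 10 libraries, and lymphocyte markers to 20.2 FPKM, also the highest, while macrophage markers, at 603 FPKM, were within the range of the other controls. Without control replicate 5 every treated library lay below every control in 34 of the 36 tested genes, beside 12.5% of all genes, and 30 of the 36 were called lower, beside 6.59%, and 0 higher, beside 1.51%. Without any other 1 library the first count was 21 to 23, beside 7.77% to 15.8% of all genes. With PAPA-NONOate, replicate 2 was the lowest library in 25 of the 42 genes, and its share over all genes was not counted either. PAPA-NONOate replicate 2 also had the lowest median of all genes, at -0.47. After median-ratio scaling without that library 20 of the 36 were called lower and 0 higher, beside 608 and 664 of 11357 genes.

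Other genes of the pathway were taken from lists of known replication and repair genes, chosen with earlier results of these data known. Of 21 tested genes of fork and Okazaki fragment synthesis 11 fell and 0 rose, with a median log2 fold change of -0.71 beside -0.18 for all genes and 7.41% of them called lower. Without the filter 11 of 23 were called lower, beside 2.98%, and 1 of the 21, SLBP, had passed the filter through controls alone. The 11 included the clamp loader genes DSCC1 (log2 fold change -1.58 at an adjusted p of 0.00508) and CHTF8 (log2 fold change -1.54 at an adjusted p of 0.00425), SLBP (log2 fold change -1.27 at an adjusted p of 0.0028), which binds histone mRNA, and the chromatin remodeller HELLS (log2 fold change -0.95 at an adjusted p of 0.00385). Of 25 further genes of homologous recombination and the Fanconi anaemia pathway 8 fell and 0 rose, with a median of -0.47, and after median-ratio scaling 1 was called higher. Of the 25, 4 had passed the filter through controls alone, BARD1, FANCF and FANCI among them, and without the filter 10 of 30 were called lower. BARD1, the partner of BRCA1, was at 3.5, 3.99, 3.83, 1.98 and 4.37 FPKM in controls and 0.779, 0.688, 0.955, 0.886 and 0.665 with PAPA-NONOate (log2 fold change -1.61, SE 0.20, adjusted p = 0.000764). FANCF, RAD54B and FANCI had log2 fold changes of -1.63 at an adjusted p of 0.0028, -1.09 at an adjusted p of 0.0035 and -1.18 at an adjusted p of 0.006. Of 34 genes of mismatch, excision and end joining repair and translesion synthesis 2 fell and 0 rose, with a median of -0.16, or 0.03 after median-ratio scaling. The share called lower was near the 7.41% of all genes. After median-ratio scaling, and also without the filter, 1 was called lower. The 2 included UNG, the uracil glycosylase, with a log2 fold change of -1.03 at an adjusted p of 0.00362. The shares of these 3 lists called lower differ in size from each other, and their difference was not tested.

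Among 8 other licensing genes 1 was called lower and 0 higher, beside 7.41% and 1.93% of all genes. The gene called lower was CDC7, the kinase activated by DBF4, with a log2 fold change of -1.19 at an adjusted p of 0.00306. ORC2, ORC3 and ORC4 had log2 fold changes of -0.31 at an adjusted p of 0.251, -0.31 at an adjusted p of 0.2 and -0.49 at an adjusted p of 0.192 and did not pass. Of 10 other checkpoint genes 1 was called lower and 0 higher, near the same shares of all genes. WEE1, a kinase that restrains CDK1, fell (log2 fold change -0.93 at an adjusted p of 0.00453), while ATR, the kinase upstream of CHEK1, did not pass (log2 fold change -0.61 at an adjusted p of 0.0902). Of 24 other regulators of the G1 to S transition 5 fell and 1 rose, beside 7.41% and 1.93% of all genes, and without the filter 4 of 26 were called lower and 1 higher. Those that fell included E2F8 (log2 fold change -1.58 at an adjusted p of 0.00333), a repressing E2F factor, MYBL2 (log2 fold change -1.05 at an adjusted p of 0.00518) and CDK2 (log2 fold change -1.0 at an adjusted p of 0.00295). The gene that rose was CDKN1A, the inhibitor of cyclin-dependent kinases also called p21, which was at 68.8, 51.5, 63.9, 44.3 and 46.6 FPKM in controls and 151, 80.1, 103, 74.4 and 95.6 with PAPA-NONOate (log2 fold change 0.84, SE 0.19, adjusted p = 0.0186). All treated libraries of CDKN1A were above all controls. For comparison with cell cycle genes outside the 45 given, TOP2A, the topoisomerase of dividing cells, had a log2 fold change of -1.86 at an adjusted p of 0.00277 and RRM2, a ribonucleotide reductase subunit, -2.62 at an adjusted p of 0.000142.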

How the data were processed

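The authors deposited 1 table of FPKM for 24355 chicken genes with Ensembl identifiers and 10 libraries. Per the labels' protocols, poly(A) RNA was isolated from TRIzol extracts and made into directional libraries, and the genome build GRCg6a and the tools Cufflinks and SAMtools are named per the submitters' processing notes. The aligner, annotation and versions stay not given in the sources used here. In all 14 failed estimates, none in the genes described, were treated as missing, and genes with one were left out. Near-identical genes can share fragments.

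Differences were tested in R 4.3.3 by limma 3.58.1, its variance prior following the mean, after adding 0.5 FPKM and taking log2, in genes with at least 1 FPKM in at least 5 libraries, over all 10 samples, without a block. Intervals are 95%. Subunit ratios and marker sums were compared by exact permutation tests (scipy 1.17.1), two-sided. Alternatives were other pseudocounts, filters, scalings, variance models, library weights, a replicate block, rows with 1 name summed and each library left out with the tested genes kept. The fit was tested on simulated data, where it called 20% of changes of 0.5 log2 and 76% of those of 1 log2. Fewer genes were called there, 146, than in the data, with 842 lower and 219 higher. The adjusted threshold was therefore stricter in the simulation, and these rates are not those of the data. A gene that did not pass can still have changed by such a size. Absolute depth is unknown, so no counting intervals are given. Named are all 45 given genes and, by rule, up to 4 genes of each other list with the smallest p, of which those of the marker lists are given mainly by sums. MKI67, also planned, was not analysed here, and 1 gene that the rule names is not reported here. The genes and lists were chosen with earlier results of these data known. Planned searches of promoter and protein sequences were not run. Figures were drawn with matplotlib 3.10.9.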

Additional observations from a re-analysis of the deposited data

Results flagged for a closer look

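In 13 of 142 groups of 5 libraries 1 library lay far from the other 4, with a gap to its neighbour of more than 0.71 of the range of the group, and chance marks about 1 group in 20. In control replicate 5 this held for MCM2 (15.4 FPKM, others 24.1 to 26.3), MCM3 (3.38 FPKM, others 6.63 to 7.91), MCM5 (16.5 FPKM, others 28.3 to 32.2) and TIPIN (14.8 FPKM, others 19.7 to 21.2), and for the log2 ratio of MCM3 to MCM2 (-2.19, others -1.86 to -1.73). Control replicate 8 stood high for CHEK1 (10.2 FPKM, others 3.42 to 5.32), RFC5 (13.5 FPKM, others 7.49 to 9) and the summed macrophage markers (898 FPKM, others 526 to 603). Control replicate 2 stood high for the summed melanocyte markers (459 FPKM, others 19.1 to 142). With PAPA-NONOate, replicate 5 stood high for MCM3 (2.11 FPKM, others 1.47 to 1.64) and low for the log2 ratio of RFC3 to RFC1 (-1.61, others -0.91 to -0.68). PAPA-NONOate replicate 4 stood low for the log2 ratio of MCM3 to MCM5 (-3.1, others -2.15 to -2.05), and replicate 2 for that of TIMELESS to TIPIN (-7.48, others -5.24 to -4.51).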

How the results depend on the processing

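Of 25 alternatives, with 23 genes called lower as reported, the count for the replication and repair genes stayed within 1.5 times except with a filter at 5 FPKM, where 11 were called, fewer genes being tested. It ran from 16 to 30 with 1 library left out and was 31 without both libraries numbered 5. In 16 of the 23 the call and direction held in each alternative in which they could be tested. Over all genes, the number called lower (842) was 449 with the filter at 5 FPKM, 1424 with library weights, 1418 without both libraries numbered 5, and 429 to 1580 with 1 library left out. The number called higher (219) was 790 after median-ratio scaling, 733 after quantile normalization, 383 with library weights, 664 after median-ratio scaling without PAPA-NONOate replicate 2, 927 with the replicate block and median-ratio scaling, and 158 to 254 with 1 library left out. The cause was not tested. None of the 36 tested replication and repair genes was called higher in these 25 alternatives.

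With the replicate number as a block 20 of the replication and repair genes and 680 of all genes were called lower and 213 higher, and with the block and median-ratio scaling 24 and 963 were called lower. The block ended the calls of CDT1 (adjusted p = 0.057), GINS1 (0.052), POLE2 (0.114) and FANCD2 (0.0745) and brought in RFC3 (0.0367). With scaling it ended those of POLE2 (0.107) and FANCD2 (0.0628) and brought in RFC3 (0.0433), RPA2 (0.0306) and UHRF1 (0.0434). Same-numbered libraries did not deviate together throughout, with correlations of 0.00348, 0.288, 0.303, -0.0229 and 0.186 for numbers 2, 3, 4, 5 and 8. Libraries of different numbers had correlations of -0.199 to 0.34. In both groups the libraries numbered 3, 4 and 8 correlated best with their own number, and those numbered 2 and 5 did not. The numbers were not taken as pairs in the main fit, although this check cannot exclude pairing.

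Signs turned in values that did not pass. DBF4 was at 0.029, 0.083 and 0.029 after median-ratio scaling, quantile normalization and the block with scaling. GINS3 was at -0.022, -0.003 and -0.071 without control replicate 5, PAPA-NONOate replicate 8 and both libraries numbered 5, and up to 0.17 with 1 library left out. The MCM4 to MCM2 ratio differed by 0.043, 0.0251, 0.011 and 0.0495 without control replicate 2 or 3 or PAPA-NONOate replicate 5 or 8, and by 0.0363 with 0.5 FPKM added. MCM3 to MCM5 differed by 0.00718 without PAPA-NONOate replicate 4 and by 0.0108 with 0.5 FPKM added, RFC5 to RFC3 by 0.0149 without control replicate 5, and RFC4 to RFC1 by -0.0501 without PAPA-NONOate replicate 4. With 1 library left out these ratios ran from -0.0504 to 0.0495, from -0.256 to 0.00718, from -0.358 to 0.0149 and from -0.0501 to 0.116. The difference in summed markers was 0.437 FPKM for melanocytes without control replicate 2 (from -111 with another left out) and 27.1 for the endothelium after median-ratio scaling. Leaving out both libraries numbered 5, scaling with a library left out, and the control mean as level, and all alternatives for ratios and marker sums were chosen after seeing the data. FPKM without counts limit how far values under 1 FPKM can be read.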
